A study of Sus scrofa with 2 samples.

Results

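Transforming growth factor beta (TGF-beta) ligands, receptors and SMADs were followed in the biceps femoris muscle of cloned piglets. They were the entries of the deposited expression tables listed under TGFB1, TGFB2, TGFB3, TGFBR1, TGFBR2, TGFBR3, SMAD2, SMAD3, SMAD4 or SMAD7, or whose best protein match carried the name of such a ligand, a TGF-beta receptor or a mothers-against-decapentaplegic (SMAD) protein. This gave 14 of 12535 entries. Of these, 1 was EIF3I, a translation factor subunit that matched only because its alternative name contains the words TGF-beta receptor, which left 13. SMAD2, SMAD5 and SMAD9 carried neither the symbol nor the description, were identified from their Ensembl numbers in a gene name table, and are described with the others, 16 entries in all. TGFBR2 and TGFBR3 had 2 entries each.

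RNA-seq was done on 1 library per group. The abnormal cloned group was a pool of 3 newborn piglets with developmental failure, with enlarged tongues (macroglossia), protruding navels (acromphalus) and an inability to stand or walk. The normal cloned group was a pool of newborn clones of normal phenotype, 4 by the methods and 3 by the sample labels. All were made by nuclear transfer of fibroblasts of male Large White pigs and sampled on Day 1 after birth. The 3 abnormal and 2 of the normal clones came from embryonic fibroblasts of the same male, and the other 2 normal clones from ear fibroblasts of another, so that donor and phenotype cannot be fully told apart. There are no replicates, so that every test below compares a pair of libraries and not the conditions, and nothing says how much animals of a group differed.

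TGF-beta is secreted as a latent complex that is stored in the extracellular matrix until it is released. The free dimer is bound by the type II receptor TGFBR2, often handed over by the co-receptor TGFBR3 (betaglycan), and TGFBR2 then activates the type I receptor TGFBR1, which phosphorylates SMAD2 and SMAD3. These join SMAD4, enter the nucleus and act on transcription, while SMAD6 and SMAD7 inhibit the pathway and SMAD1, SMAD5 and SMAD9 carry the signal of bone morphogenetic proteins (BMPs). In skeletal muscle the pathway is known for restraining myoblast differentiation and for driving matrix deposition by fibroblasts.

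Unique reads summed over the entries of each deposited table came to 6.38 M for the abnormal and 6.52 M for the normal cloned group, and these sums served as library totals. The floor of detection was taken as 3 reads, or 0.470 and 0.460 RPM. Mitochondrial transcripts took 36.0% of the abnormal and 46.1% of the normal library. The muscle fibre markers ACTA1, MYH1, MYH2 and MYLPF, those 4 of 10 that were found by name, summed to an RPKM of 76668 and 70152. Summed RPKM was 1386 and 1547 for 8 of 10 fibroblast markers, 90.1 and 89.0 for 8 of 10 endothelial markers, 368 and 409 for 5 of 8 smooth muscle and pericyte markers, 294 and 204 for 5 of 6 satellite cell markers, 17.8 and 29.0 for 7 of 10 macrophage and leukocyte markers, 480 and 694 for 4 of 5 erythroid markers, 0.492 and 0.218 for 3 of 5 adipocyte markers, and 0.0832 and 0.163 for 1 of 5 platelet markers, abnormal library first. At these library totals MYF5, a satellite cell gene, was the only one of these markers called different. It had 391 abnormal and 130 normal reads in 1 of its 2 entries. With the median ratio of all genes set to 1, the leukocyte marker PTPRC, chosen after its values were seen, was called lower (log2 ratio -2.47). Calls of the other markers after such a rescaling are not given here. The adipocyte genes LEP and PLIN1 had no normal read, and 5 of the 7 leukocyte markers were lower in the abnormal library. The other listed markers had no entry under their name. In such bulk samples fewer cells of a type and less RNA per cell cannot be told apart.

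TGFB2, TGFBR2 and SMAD3 (a ligand, a receptor and a receptor-activated SMAD) were called higher in the abnormal library, and no member was called lower. A call needed a false discovery rate (FDR) of at most 0.001 in the exact Audic-Claverie test on the reads, adjusted over all 12535 entries, together with a log2 ratio of RPKM of at least 1 in size. RPKM is the read count scaled to the transcript length in kb and to the library's total in M reads. The 3 up-regulated entries were 21.4% of the 14, against 12.0% of all entries called up and 1.45% called down. Among all entries with at least 10 reads in all, which 13 of the 14 had, 16.4% were called up. At the fold alone, 6 of the 13 with at least 10 reads in all had a log2 ratio of at least 1. None had one of -1 or less. Of all entries with so many reads 25.9% and 5.33% did. With SMAD2, SMAD5 and SMAD9 added and EIF3I left out, a set chosen after seeing the data, it was 8 of 15. Both TGFBR2 entries are counted in each set. TGFB2 and SMAD5 fell to log2 ratios of 0.75 and 0.74 with the median ratio of all genes set to 1. The median log2 ratio of the 14 entries was 0.92, or 0.65 with the entry without normal reads set to its floor, and that of all entries was 0.35. It was 0.32 over the 10 entries that had at least 10 reads in each library, against 0.36 for all entries of that kind. Over all entries 1510 were called up and 182 down, a split that became 812 and 498 when the median ratio of all genes was set to 1. All 3 calls were lost in the edgeR exact test that assumes a coefficient of variation between libraries of a group of 0.4 or of 0.2. Each library is a pool, so these values are not a spread between single animals.

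**Figure D1:**
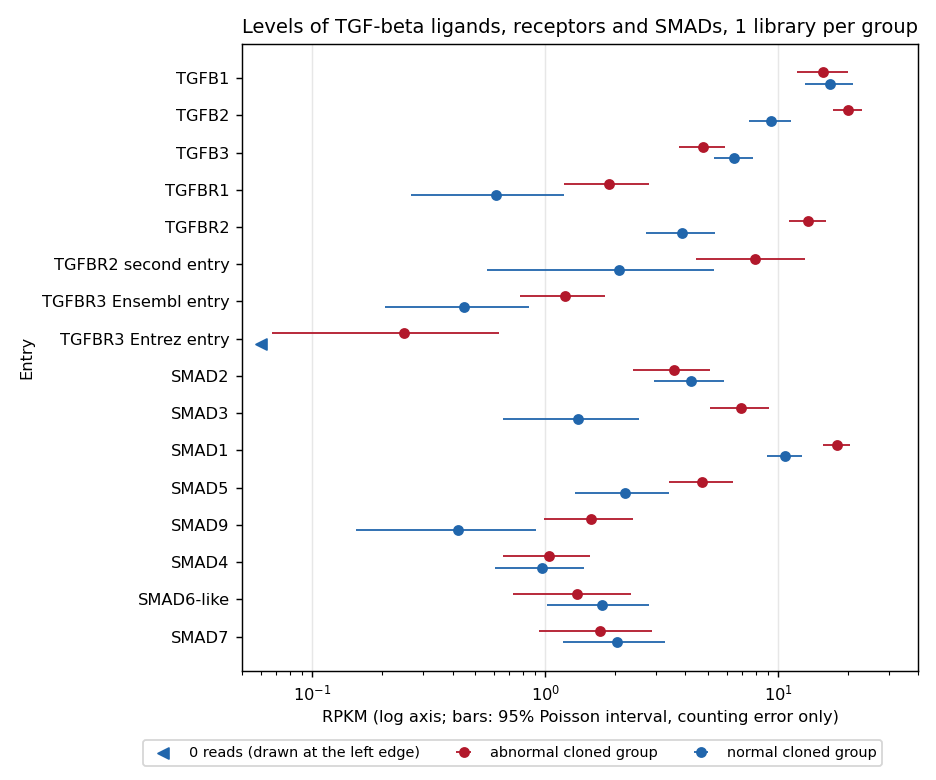
RPKM (log axis) of the 16 entries in the abnormal (red) and normal (blue) library, with 95% exact Poisson intervals that cover counting error only. TGFB2, TGFBR2 and SMAD3 lie at 19.96, 13.4 and 6.90 in the abnormal library, against 9.27, 3.86 and 1.38 in the normal one with intervals that do not overlap, while TGFB1, SMAD2, SMAD4 and SMAD7 overlap.

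The ligands moved in different ways. TGFB2 (ENSSSCG00000010816, Sscrofa9 chromosome 10, 8390284 to 8417643) had 196 abnormal and 93 normal reads, an RPKM of 19.96 and 9.27. It rose 2.15-fold, a log2 ratio of 1.11 with a 95% Wilson interval of 0.75 to 1.46 (the range given in brackets for each ratio below; FDR 3.60e-09, exact Audic-Claverie test). TGFB2 is the isoform best known from heart, eye and craniofacial development. The call rests on the scaling of the libraries, because with the median ratio of all genes set to 1 the log2 ratio was 0.75 and the call was lost. TGFB1 (gene 397078, chromosome 6, 34090685 to 34099941), the isoform of platelets, leukocytes and many stromal cells, had 66 and 72 reads and an RPKM of 15.6 and 16.7. Its log2 ratio was -0.095 (-0.57 to 0.39) and was not called. TGFB3 (gene 397400, chromosome 7, 107143961 to 107164189), known from palate fusion, had 78 abnormal and 109 normal reads, an RPKM of 4.74 and 6.48 and a ratio of -0.45 on the log2 scale (-0.87 to -0.03, FDR 0.0894), also not called. A fall of TGFB3 would have been called at 53 reads or fewer. With the median ratio of all genes set to 1 the log2 ratio of TGFB3 was -0.81, which met the FDR needed for a call but not the fold. Of the leukocyte markers, PTPRC (CD45), chosen after its values were seen, had 5 abnormal and 22 normal reads and was not called without rescaling. Of the 7 such markers 5 were lower, while CSF1R (95 and 91 reads) and ITGAM (15 and 10 reads) were higher. The part of these cells in the TGFB1 level was not tested.

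The make-up of the ligands, which does not depend on how the libraries are scaled, differed between them. TGFB2 made up 49.5% of the summed ligand RPKM in the abnormal library, against 28.6% in the normal one. TGFB1 made up 38.7% and 51.4%, and TGFB3 11.76% and 19.99%. TGFB2 thus had the highest RPKM of the ligands in the abnormal library and TGFB1 in the normal one. This order depends on the transcript lengths used. Reads covered 50.52% (abnormal) and 44.68% (normal) of the 1540 bases of TGFB2, and 94.87% and 96.98% of the 663 bases of TGFB1. Of the reads of TGFB2 and TGFB1 together, TGFB2 held 74.8% (95% exact interval 69.1% to 79.9%) in the abnormal library, against 56.4% (48.4% to 64.1%) in the normal one. Of the reads of TGFB2 and TGFB3, it held 71.5% (65.8% to 76.8%) and 46.0% (39.0% to 53.2%). Neither pair of intervals overlapped. At equal levels per length TGFB2 would hold 69.9% of its reads with TGFB1, which lies inside the abnormal interval and above the normal one, so that only in the normal library did their order exceed counting error. The split between TGFB1 and TGFB3 overlapped, with a TGFB1 share of 45.8% (37.5% to 54.3%) and 39.8% (32.6% to 47.3%).

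**Figure D2:**
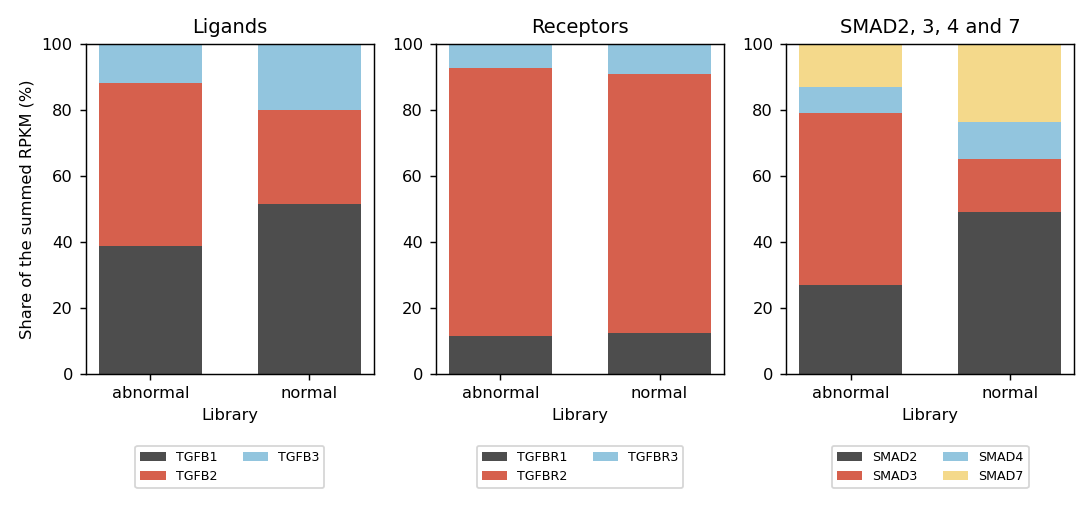
Share of each member in the summed RPKM (%) of the 3 ligands, the 3 receptors (for TGFBR2 and TGFBR3 the entry with more reads) and SMAD2, SMAD3, SMAD4 and SMAD7, in the abnormal and normal library. TGFB2 and SMAD3 take 49.5% and 52.2% in the abnormal against 28.6% and 16.1% in the normal library, while the receptors keep their order.

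The 5 receptor entries were all higher in the abnormal library, and only TGFBR2 was called. Of all entries with at least 10 reads in all, 68.4% were higher. TGFBR2, the ligand-binding type II receptor kinase (gene 100038019, chromosome 13, 14852440 to 14877102), had 122 abnormal and 36 normal reads, an RPKM of 13.4 and 3.86. Reads covered 94.27% of its transcript in the abnormal library, against 68.67% in the normal one. It rose 3.46-fold (log2 ratio 1.79, interval 1.26 to 2.33, FDR 1.61e-11, exact Audic-Claverie test) and was also called after each of the 3 rescalings of the libraries that were tried. A second, short entry described as TGFBR2 (ENSSSCG00000011227, 297 bases, 14913077 to 14917024 on the same chromosome) had 15 abnormal and 4 normal reads, an RPKM of 7.92 and 2.07 (log2 ratio 1.94, 0.42 to 3.46), and was not called. The entries lie on opposite strands, so that it is uncertain whether the short one belongs to the same gene. Both lie inside the span of ENSSSCG00000011224, described as a glutamate decarboxylase-like protein, which had 280 abnormal and 114 normal reads and is on the strand of the longer TGFBR2 entry.

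TGFBR1, the type I receptor kinase (gene 396665, chromosome 1, 252432143 to 252486884), had 24 abnormal and 8 normal reads, an RPKM of 1.88 and 0.614. Its log2 ratio was 1.62 (0.49 to 2.74, FDR 0.0192), and with 8 normal reads a call would have needed 31 abnormal reads. The receptor kinases were thus both higher in the abnormal library, but TGFBR1 had too few reads for a call. TGFBR3, the co-receptor without a kinase, was split over 2 overlapping entries on chromosome 4. ENSSSCG00000006911 (129393886 to 129506717) had 24 abnormal and 9 normal reads, an RPKM of 1.22 and 0.447 and a ratio of 1.45 on the log2 scale (0.37 to 2.53, FDR 0.0346). The entry 397512 (129336808 to 129506172) had 4 abnormal and 0 normal reads, which is 1.36-fold higher when 3 reads are taken as the normal count. The lower limit of its Wilson interval was a log2 ratio of 0.089. Together they had 28 abnormal and 9 normal reads (log2 ratio 1.67, 0.61 to 2.73). Because only unique reads were counted, a read that matched both entries equally is in neither, and the level of TGFBR3 is uncertain.

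Within the receptors the proportions had overlapping intervals. Of the reads of TGFBR2 and TGFBR1, TGFBR2 held 83.6% (76.5% to 89.2%) in the abnormal library, against 81.8% (67.3% to 91.8%) in the normal one. Per length TGFBR2 was 7.11 and 6.29 times as abundant as TGFBR1 in the abnormal and the normal library. Relative to TGFB1, the RPKM of TGFBR2 was 0.857 times as high in the abnormal and 0.232 times as high in the normal library. Of their reads together TGFBR2 held 64.9% (57.6% to 71.7%) and 33.3% (24.6% to 43.1%), intervals that did not overlap. Relative to TGFB2 the RPKM was 0.670 and 0.417 times as high, and the shares of reads, 38.4% (33.0% to 44.0%) and 27.9% (20.4% to 36.5%), overlapped. Endothelial cells and fibroblasts also carry these receptors. Of their markers 5 of 8 endothelial and 6 of 8 fibroblast genes were lower in the abnormal library, and 0 were called without rescaling. The growth factor receptors KDR (297 and 181 reads, log2 ratio 0.75) and PDGFRA (71 and 40 reads, 0.86), chosen after their values were seen, were among those with higher values. The fibroblast sum is mostly COL1A2, COL3A1 and DCN, and COL1A2 and COL3A1 are also among the response genes described last. The part of these cells in the receptor levels was not tested.

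SMAD3 had the largest ratio of the members that had reads in both libraries. SMAD3, the receptor-activated SMAD that binds DNA directly (gene 397260, chromosome 1, 172341003 to 172364322), had 49 abnormal and 10 normal reads, an RPKM of 6.90 and 1.38. The reads covered 86.07% of its 1113 bases in the abnormal library, against 24.35% in the normal one. It rose 5.01-fold (log2 ratio 2.32, interval 1.36 to 3.29, FDR 1.15e-06, exact Audic-Claverie test), and the call held after each of the 3 rescalings. Its partner SMAD2 (ENSSSCG00000004505, chromosome 1, 101093768 to 101104311) had 29 abnormal and 35 normal reads, an RPKM of 3.56 and 4.21 and a ratio of -0.24 on the log2 scale (-0.94 to 0.46), and was not called. The order of these SMADs was thus opposite in the libraries, and the share at equal levels per length, 46.6%, lies outside both intervals given next. Per length SMAD3 was 1.94 times as abundant as SMAD2 in the abnormal library, against 0.328 times in the normal one. SMAD3 held 62.8% (51.1% to 73.5%) of their reads together in the abnormal library, against 22.2% (11.2% to 37.1%) in the normal one.

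SMAD4 and the inhibitory SMADs were few in reads and none was called. SMAD4, the partner shared by the TGF-beta and BMP branches (gene 397142, chromosome 1, 103812352 to 103866422), had 23 abnormal and 22 normal reads, an RPKM of 1.03 and 0.969 and a ratio of 0.095 on the log2 scale (-0.74 to 0.93), a direction that turned to -0.26 with the median ratio of all genes set to 1. SMAD7, which blocks the type I receptor and is itself a well-known TGF-beta response gene (gene 100521305, chromosome 1, 101672864 to 101700903), had 14 abnormal and 17 normal reads, an RPKM of 1.71 and 2.04 and a ratio of -0.25 on the log2 scale (-1.25 to 0.75). The SMAD6-like entry (gene 100516659, chromosome 1, 171829965 to 171907925), named from a predicted protein, had 13 abnormal and 17 normal reads, an RPKM of 1.37 and 1.75 and a ratio of -0.36 on the log2 scale (-1.38 to 0.66). With 17 normal reads a call needed 47 abnormal reads or at most 1, so that a 2-fold change of either inhibitor was not detectable at this depth. Among SMAD3 and SMAD7 reads, SMAD3 held 77.8% (65.5% to 87.3%) in the abnormal library, against 37.0% (19.4% to 57.6%) in the normal one. On chromosome 1 of Sscrofa9 lie SMAD2, SMAD7 and SMAD4 within 2.77 Mb and SMAD3 and the SMAD6-like entry within 0.534 Mb, and the neighbours SMAD3 and SMAD6-like had ratios of opposite sign.

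The SMADs of the BMP branch were all higher in the abnormal library and none was called. Of the 16 members 11 (68.75%) were higher, near the 68.4% of all entries with at least 10 reads in all. SMAD1 (gene 397016, chromosome 8, 71566227 to 71612707) had 216 abnormal and 132 normal reads, an RPKM of 17.9 and 10.7 and a ratio of 0.74 on the log2 scale (0.43 to 1.05), with an FDR of 1.72e-05 in the exact Audic-Claverie test but a fold of 1.67, under the fold needed. SMAD5 (ENSSSCG00000014319, chromosome 2, 125760025 to 125790324) had 42 abnormal and 20 normal reads, an RPKM of 4.71 and 2.20 (log2 ratio 1.10, 0.34 to 1.86, FDR 0.0183). SMAD9 (ENSSSCG00000009357, chromosome 11, 12164136 to 12268651) had 22 abnormal and 6 normal reads, an RPKM of 1.58 and 0.421 (log2 ratio 1.91, 0.64 to 3.17, FDR 0.0108). SMAD5 would have needed 51 and SMAD9 28 abnormal reads for a call. SMAD9 shares its span with 2 other entries of 194 and 226 and of 422 and 276 reads. SMAD1 was the most abundant SMAD in both libraries, with 46.1% and 45.2% of the summed RPKM of the 8 SMADs.

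**Figure D3:**
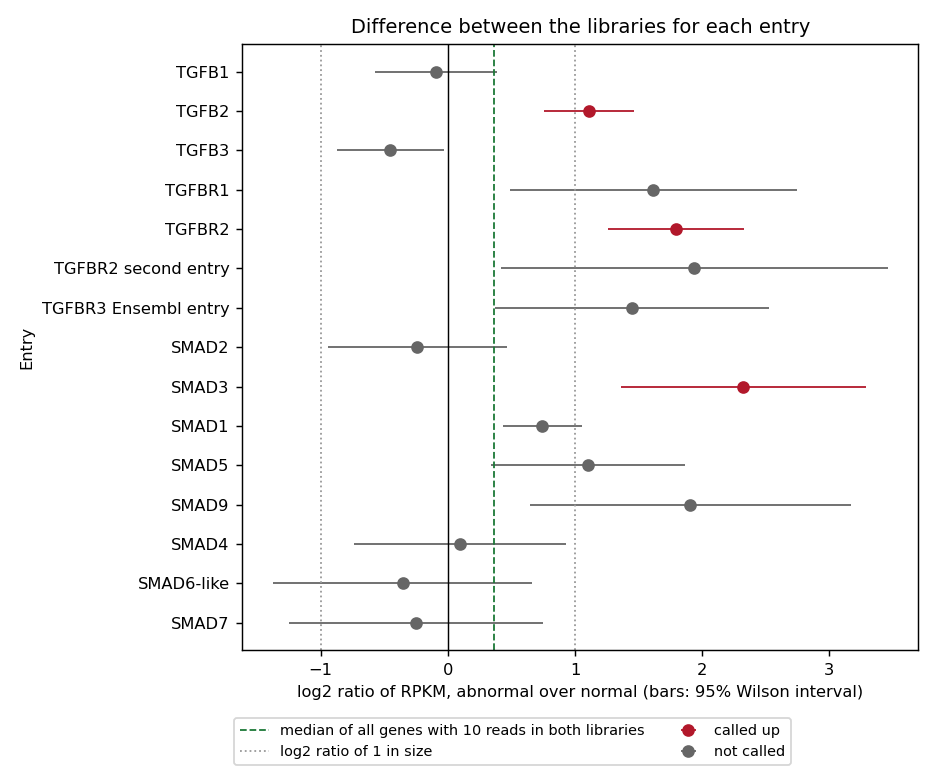
log2 ratio of RPKM (abnormal over normal) of the 15 entries with reads in both libraries, with 95% Wilson intervals for counting error; red points were called up, the dashed line is the median of genes with 10 or more reads in each library (0.36) and dotted lines mark a log2 ratio of 1 in size. SMAD3, SMAD9, the TGFBR2 entries, TGFBR1, TGFBR3, TGFB2 and SMAD5 lie beyond the upper dotted line, and TGFB1, TGFB3, SMAD2, SMAD7 and the SMAD6-like entry lie below 0.

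The levels ranged over most of the expressed genes. In the abnormal library the order began with TGFB2 (RPKM 19.96), SMAD1 (17.9), TGFB1 (15.6) and TGFBR2 (13.4). In the normal library it began with TGFB1 (16.7), SMAD1 (10.7), TGFB2 (9.27) and TGFB3 (6.48). TGFBR2 moved from percentile 57.5 of the entries with reads in the normal library to 75.0 in the abnormal library, and SMAD3 from percentile 37.6 to 61.5. TGFB1 was at percentiles 82.5 and 77.3. The lowest members with reads in both libraries were SMAD9 (percentile 19.5) and the Ensembl entry of TGFBR3 (20.3) in the normal library, and SMAD4 (28.2) and that TGFBR3 entry (30.7) in the abnormal one. TGFBR1 was at percentile 24.5 in the normal and 37.9 in the abnormal library. In each library 14 of the 15 pairs of neighbours in this order had overlapping Poisson intervals, so that counting error alone could order such neighbours differently. The exceptions were SMAD4 over the Entrez entry of TGFBR3 in the abnormal library, and TGFB1 over SMAD1 in the normal library. EIF3I, the subunit of translation initiation factor 3 found by its alternative name, had 500 abnormal and 348 normal reads, an RPKM of 94.2 and 64.2 and a ratio of 0.55 on the log2 scale (0.36 to 0.75), and was not called.

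The other genes of the pathway were put in 8 lists of 185 genes, of which 119 were found by name, in 124 entries. Of these entries 31 were called up and 0 down, which is 25.0% against the 12.0% of all entries. At least 10 reads in all were found for 109 of the 124, and 16.4% of all entries with so many reads were called up. Their median log2 ratio was 0.65, against 0.35 for all entries. With the median ratio of all genes set to 1, 16 of the 31 calls remained and 3 entries were called down. Whether the lists differed from each other was not tested.

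On the surface and matrix side the share called up was 14.3% for other ligands, 16.7% for other receptors, 11.1% for latency and activation and 18.2% for ligand traps, near the 12.0% of all entries. Among 7 entries for other ligands, MSTN (myostatin, a brake on muscle growth) was called up, with 128 abnormal and 35 normal reads and a log2 ratio of 1.90. Among 12 entries for other receptors 2 were called up, the BMP receptors BMPR1A (125 and 31 reads, log2 ratio 2.04) and BMPR2 (134 and 62 reads, 1.14). Endoglin (ENG), the endothelial co-receptor, chosen after its values were seen, had 1433 abnormal and 1491 normal reads (log2 ratio -0.03). For latency and activation 2 of 18 entries were called up. THBS1 (thrombospondin-1), an activator of latent TGF-beta, had 465 abnormal and 89 normal reads (log2 ratio 2.42, FDR 2.14e-62, exact Audic-Claverie test), and FURIN, the protease that cleaves the TGF-beta precursor, had 152 abnormal and 68 normal reads (log2 ratio 1.19). Among 11 ligand traps 2 were called up, the myostatin-binding protein WFIKKN2 (47 and 6 reads, log2 ratio 3.0) and the BMP-binding protein TWSG1 (44 and 11 reads, 2.03), while 7 of the 11 had a log2 ratio below 0. The calls of BMPR2, FURIN and TWSG1 were lost with the median ratio of all genes set to 1, and EMILIN1, of the latency list, was then called down.

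Of 18 entries for SMAD partners and co-activators 9 (50.0%) were called up, against 12.0% of all entries and 16.4% of those with at least 10 reads in all. Among them was ATF2, a transcription factor of the AP-1 kind (95 and 26 reads, log2 ratio 1.90). Called too were the nuclear import receptor IPO8 (61 and 18 reads, 1.79) and the ubiquitin ligase scaffold CUL1 (172 and 55 reads, 1.68). Of 15 entries on the list of negative regulators 6 were called up, RNF111, USP15 and WWP1 among them. The direction in which each listed gene acts on the pathway was not checked, so that the 6 are not a count of inhibitors. PPP1R15A, which steers a phosphatase to its substrates, had 199 abnormal and 55 normal reads (log2 ratio 1.89), the inner nuclear membrane protein LEMD3, which binds receptor-activated SMADs, had 49 abnormal and 14 normal reads (log2 ratio 1.84), and PPP2CA, a catalytic subunit of phosphatase 2A, had 430 abnormal and 127 normal reads (log2 ratio 1.79). Of 12 entries for kinases and adaptors outside the SMAD route 5 (41.7%) were called up. MAP3K7 (TAK1), the kinase that TGF-beta receptors reach through TRAF6, had 143 abnormal and 27 normal reads (log2 ratio 2.44, FDR 1.36e-19, exact Audic-Claverie test), the stress kinase MAPK14 had 128 and 40 reads and 1.71, and the adaptor SHC1 had 137 and 52 reads and 1.43. With the median ratio of all genes set to 1, the calls fell from 9 to 3 for SMAD partners, from 6 to 3 for negative regulators, LEMD3 among those lost, and from 5 to 4 for the kinases and adaptors. The entries with a log2 ratio above 0 were then 14 of 18, 11 of 15 and 10 of 12. Of all 12535 entries 812 were then called up. This scaling sets the median ratio of genes with at least 10 reads in each library to 1. TRAF6 had 9 abnormal and 0 normal reads and was not called. With 3 reads taken as the normal count it was 3.07-fold higher, and the lower limit of its Wilson interval was a log2 ratio of 1.26.

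The response genes of TGF-beta were called up at about the share of all entries. Of 31 entries 4 were called up and 0 down, 12.9% against 12.0% of all entries and 16.4% of those with at least 10 reads in all, which 28 of the 31 had. The median log2 ratio of 0.26, or 0.080 with entries at 0 reads set to the floor, was under the 0.35 of all entries. With the median ratio of all genes set to 1 the split was 2 up (BHLHE40 and TIMP3) and 2 down (TIMP1 and ANGPTL4). Those with the largest ratios among the called were BHLHE40 (598 and 165 reads, log2 ratio 1.89), a repressor of transcription, TIMP3 (76 and 23 reads, 1.76), an inhibitor of metalloproteinases, and CDKN1A (302 and 131 reads, 1.24), an inhibitor of the cell cycle. The other called entry was MYC (434 and 207 reads, 1.10). The list was not sorted by the direction of the known response, so these counts do not measure the activity of the pathway. Of the matrix genes that are classical targets in fibroblasts, chosen after their values were seen, COL1A2 had 13580 abnormal and 14852 normal reads (log2 ratio -0.098), COL3A1 had 11678 abnormal and 13941 normal reads (log2 ratio -0.22), and CTGF had 88 abnormal and 51 normal reads (log2 ratio 0.82). None of these 3 was called. COL1A1, SKI, SMURF1 and SMURF2 had no entry under their names and were not analysed here.

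**Figure D4:**
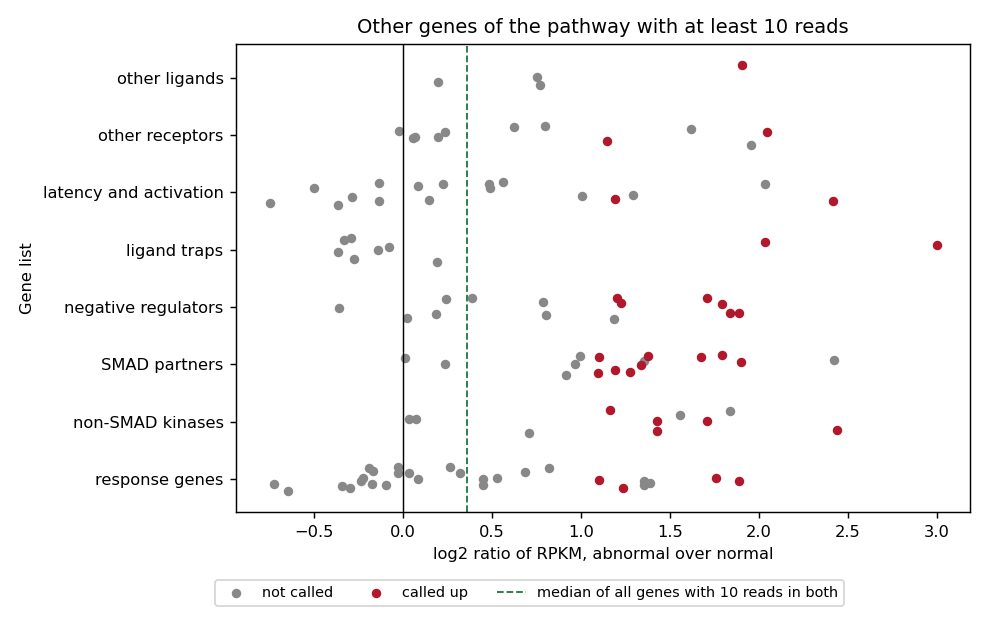
log2 ratio of RPKM (abnormal over normal) of the other pathway genes by list, for entries with at least 10 reads in all and reads in both libraries; each point is an entry, red points were called up and the dashed line is the median of genes with 10 or more reads in each library (0.36). Called entries number 9 of 18 listed SMAD partners, 6 of 15 on the list of negative regulators and 5 of 12 non-SMAD kinases. Of all entries 12.0% were called up. Other ligands hold 1 called entry, other receptors, latency and activation and ligand traps 2 each, and response genes 4. With the median ratio of all genes set to 1, the 9, 6 and 5 become 3, 3 and 4. The response genes lie on both sides of 0.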

How the data were processed

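Poly(A) RNA of 2 pools was sequenced. The authors filtered the reads, aligned them to reference transcripts with SOAPaligner/soap2 (no more than 2 mismatches), and deposited the count of unique reads per transcript, its RPKM and its coverage (percent of bases covered); coordinates are Sscrofa9, as the deposited descriptions give them. Entries with no unique read are left out of a table and were taken as 0 reads.

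From the counts, the two-sided Audic-Claverie test (tail doubled, Benjamini-Hochberg over 12535 entries) and the log2 ratio of the deposited RPKM (0 replaced by 0.001) were computed; 8814 entries were named from reference tables (RefSeq, Sscrofa11.1, names only; Ensembl) and 204 from the files. Intervals are 95% and cover counting error only. The members and lists were chosen with earlier results of these data known. Named from the lists were the called genes, up to 3 per direction with the largest log2 ratio; exceptions are stated. Alternatives were 3 rescalings, 3 other tests, a pseudocount of 1, a minimum of 10 reads in both libraries and an FDR of 0.05. The script was tested on simulated data with counting noise only, which cannot show how the calls fare with differences between animals. Python 3.11.15, scipy 1.17.1, R 4.3.3 and edgeR 4.0.16 were used.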

Additional observations from a re-analysis of the deposited data

How the results depend on the processing

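The count of 3 members called up was 0 in the edgeR exact test that assumes a coefficient of variation of 0.4 and 0 with 0.2, 3 in Fisher's exact test and 6 at an FDR of at most 0.05. TGFB2 lost its call in the 3 rescalings, which shift all log2 ratios by -0.36 (median ratio), -0.39 (TMM) and -0.25 (totals without mitochondrial transcripts), and SMAD4 turned to log2 ratios of -0.26, -0.30 and -0.15. The median of the members, 0.92, became 0.56, 0.53 and 0.68 in these rescalings, 0.58 with RPKM + 1 and 0.32 with at least 10 reads in both libraries. No member was called down under any alternative. Leaving out EIF3I, or adding SMAD2, SMAD5 and SMAD9, both chosen after seeing the data, left the 3 calls.

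Of the 31 other pathway entries called up, 16, 16 and 20 were called after these rescalings in the same order, 0 and 3 in the edgeR exact test at 0.4 and 0.2 (the 3 being THBS1, MAP3K7 and BHLHE40), and 3 entries, EMILIN1, TIMP1 and ANGPTL4, were called down after each of the first 2 rescalings. All entries called up after a rescaling were among the 31. Over all 12535 entries, calls were 1510 up and 182 down, against 812 and 498, 751 and 548, and 986 and 366 after the rescalings, 2 and 1 and 243 and 20 in the edgeR exact test at 0.4 and 0.2, and 1974 and 342 at an FDR of at most 0.05. No paired analysis was possible because each group has 1 library, which also leaves no replicate to omit.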
